A study of Macaca fascicularis with 15 samples.

Results

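Bipolar cells are the interneurons that carry signals from photoreceptors to the amacrine and ganglion cells of the inner retina. ON bipolar cells, among them the rod bipolar cell, sense glutamate through the metabotropic receptor mGluR6, whose Go protein cascade closes the channel TRPM1 in darkness. OFF bipolar cells sense glutamate through ionotropic receptors of the kainate and AMPA types. The genes described here are 6 markers of these cells, GPR179, PCP2, PRKCA, GRIK1, CA10 and TMEM215, chosen by name. All 6 were found in each of 11 tables of normalized RNA sequencing values, among 12995 entries kept, and all 6 were among the 11933 entries that passed the filter on low values.

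The samples came from wild-type cynomolgus monkeys, and each was prepared from 1 eye kept in an RNA-preserving solution. There were 4 samples of central retina, 3 of peripheral retina, 2 whole retinas and 2 whole eyes. A further 4 records, which carry the same source numbers as the 2 whole retinas and 2 whole eyes, were not analysed here, and whether they are separate samples is not stated. Central samples are headed as macula, the area of sharpest vision, in their tables. Replicates are called biological in the labels, which name no age, sex or animal. The tests therefore weigh differences against the spread among samples whose animals are unknown. Values carry no stated unit and the absolute depth is unknown, so levels are compared between libraries for 1 gene and not between genes. The sum of all values lay between 299480 and 375035 per library, and between 171 and 501 entries per library were listed at 0.

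Markers of tissue outside the neural retina were high in the whole retina libraries. The summed level of 13 measured markers of lens, ocular surface, muscle and fibrous tissue was 14.5 to 19.7 in central retina, 21.5 to 25.9 in peripheral retina, 1997 to 2129 in whole retina and 4319 to 4878 in whole eye, and none of the 13 was at 0 in every library. The 6 measured markers of pigment epithelium summed to 65.8 to 156 in central retina, 354 to 542 in peripheral retina, 1954 to 2109 in whole retina and 2058 to 2270 in whole eye. Across tested genes, log2 values of the whole retina libraries had a Pearson's r of 0.803 to 0.834 with central retina, 0.838 to 0.875 with peripheral retina and 0.914 to 0.955 with whole eye. In bulk tissue, fewer bipolar cells and less RNA per bipolar cell cannot be told apart, and neither can be told apart from a larger share of RNA from other cells.

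**Figure D1:**
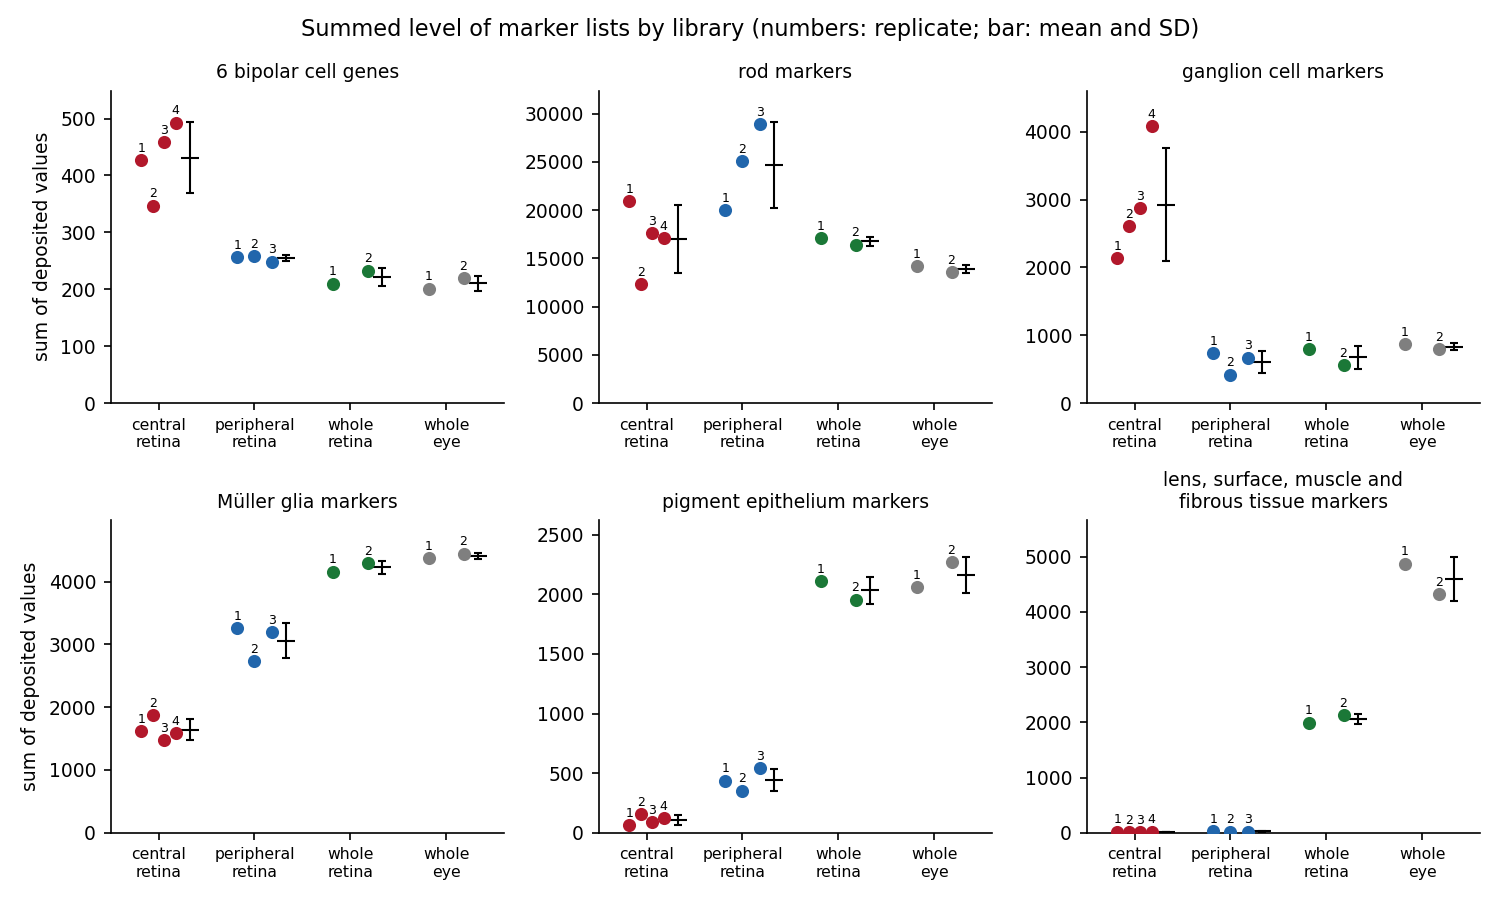
Sum of the deposited values over the measured genes of 6 lists, by library, with 1 point per library, its replicate number above it, and the mean and SD beside each group (n = 4, 3, 2 and 2). Markers of lens, surface, muscle and fibrous tissue lay at 25.9 or less in every regional library and at 1997 or more in every whole retina and whole eye library.

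PCP2 was the member with the largest regional difference. It encodes Purkinje cell protein 2, a regulator of Go proteins found in ON bipolar cells. Its value was 266, 175, 305 and 339 in the 4 central retinas, against 101, 113 and 115 in the 3 peripheral retinas. It was 119 and 119.6 in the whole retinas and 96.0 and 110 in the whole eyes. Each central library lay above each library of the other 3 groups, and the peripheral libraries overlapped with the whole eyes. Such a split from all 3 groups was not counted over all tested genes.

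Mean PCP2 was 271 ± 70.5 in the central libraries (SD, n = 4) against 109.6 ± 7.57 in the peripheral ones (SD, n = 3), a ratio of 2.47. The fitted log2 difference was 1.26 with a standard error of 0.19, and limma's adjusted p was 0.00101. Across the 21 alternatives tried, the adjusted p of this difference lay between 0.000142 and 0.00594. The name PCP2 begins with that of PC, the pyruvate carboxylase gene, which read 14.1 to 20.4 in the central and 8.90 to 12.5 in the peripheral libraries. With both names summed the log2 difference was 1.21, at a limma adjusted p of 0.00114. Such a sum rests on the names alone and mixes different genes, so it cannot decide whether PCP2 itself differs.

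GPR179 did not pass between the regions. It encodes an orphan receptor that holds the RGS proteins of the mGluR6 cascade at the dendrite tips of ON bipolar cells, and its loss causes a congenital stationary night blindness in humans. Its value was 12.4, 10.9, 11.9 and 10.8 in central retina, against 11.7, 10.6 and 9.59 in peripheral retina. The whole retinas read 5.86 and 3.89, and the whole eyes 4.99 and 6.63. The regional libraries overlapped with each other, and all 7 lay above the 4 others. How many of all tested genes split 7 against 4 in this way was not counted. Against whole retina alone, 24.1% were so separated as higher in central and 21.7% in peripheral retina.

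Between central and peripheral retina the log2 difference of GPR179 was 0.11, with a 95% confidence interval from −0.21 to 0.42 (limma adjusted p = 0.635). GPR179 shares its name start with GPR1 and GPR17. GPR1 stood at 86.4 in central retina replicate 2 and at 54.2 and 58.9 in peripheral retina replicates 1 and 3, and at or under 0.89 in the other 4 regional libraries. GPR179 itself read 9.59 to 12.4 in all 7 of them, with no such split. With the values of the 3 names summed, the regional difference of the sum, not of GPR179 alone, was −0.73 (limma adjusted p = 0.513).

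PRKCA, the gene of protein kinase C alpha and the usual marker of rod bipolar cells, was the member with a higher mean in peripheral than in central retina. It read 24.6, 16.0, 17.0 and 17.2 in central retina, against 25.5, 29.1 and 19.8 in peripheral retina. The whole retinas read 14.9 and 18.6, and the whole eyes 15.2 and 18.9. Of the central libraries, 3 lay below all peripheral libraries, and replicate 1 lay inside the peripheral range.

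Mean PRKCA was 18.7 ± 3.94 in the central libraries (SD, n = 4) against 24.8 ± 4.68 in the peripheral ones (SD, n = 3), a log2 difference of −0.39 with a 95% confidence interval from −0.77 to −0.01. The difference did not pass over all genes (limma adjusted p = 0.135). Without central retina replicate 1 it was −0.52 with a limma adjusted p of 0.0469, and over the 21 alternatives the adjusted p ran from 0.0469 to 0.409. Central retina replicate 1 also had the highest sum of 10 rod markers in its group, 20920, against 12290 to 17620 in the other 3 central libraries and 19990 to 28930 in peripheral retina. The part of rod-rich tissue in the PRKCA value of that library was not tested.

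GRIK1 encodes GluK1, a kainate receptor subunit of OFF bipolar cells. It read 31.0, 44.9, 33.0 and 33.0 in central retina, against 37.3, 25.0 and 27.5 in peripheral retina. In the whole retinas it read 15.1 and 19.3, and in the whole eyes 17.5 and 20.2. The 2 regions overlapped, and every regional library lay above every whole retina and whole eye library, the same split as for GPR179 and likewise without a count over all genes. Mean GRIK1 was 35.5 ± 6.36 in the central libraries (SD, n = 4) against 29.9 ± 6.50 in the peripheral ones (SD, n = 3), with a log2 difference of 0.24 and a 95% confidence interval from −0.13 to 0.61 (limma adjusted p = 0.328).

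CA10 and TMEM215 mark bipolar cells more broadly. CA10 encodes a carbonic anhydrase relative without catalytic activity that binds neurexins. It read 38.2, 47.0, 43.0 and 43.9 in central retina, against 36.9, 35.0 and 33.9 in peripheral retina. The whole retinas read 26.1 and 30.3, and the whole eyes 28.7 and 29.7. The 4 central libraries lay above the 3 peripheral ones without overlap, by a narrow margin between 38.2 and 36.9.

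TMEM215 encodes a membrane protein. It read 55.2, 52.3, 48.6 and 49.2 in central retina, against 44.2, 45.7 and 42.9 in peripheral retina, again without overlap. The whole retinas read 28.8 and 41.2, and the whole eyes 38.9 and 33.7. Neither regional difference passed over all genes. For CA10 it was 0.28 on the log2 scale, with a 95% confidence interval from 0.06 to 0.50 (limma adjusted p = 0.0736), and for TMEM215 it was 0.21, with an interval from −0.06 to 0.48 (limma adjusted p = 0.254). Groups without overlap and higher in central retina were found for 19% of all tested genes. The names CA1 and TMEM2, which share their starts with these members, read 0.03 or less and 3.24 to 12.4 in the regions. The sum of TMEM215 and TMEM2, made on the names alone, had a difference of 0.00 (limma adjusted p = 0.986). It mixes different genes and is no test of TMEM215 itself.

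**Figure D2:**
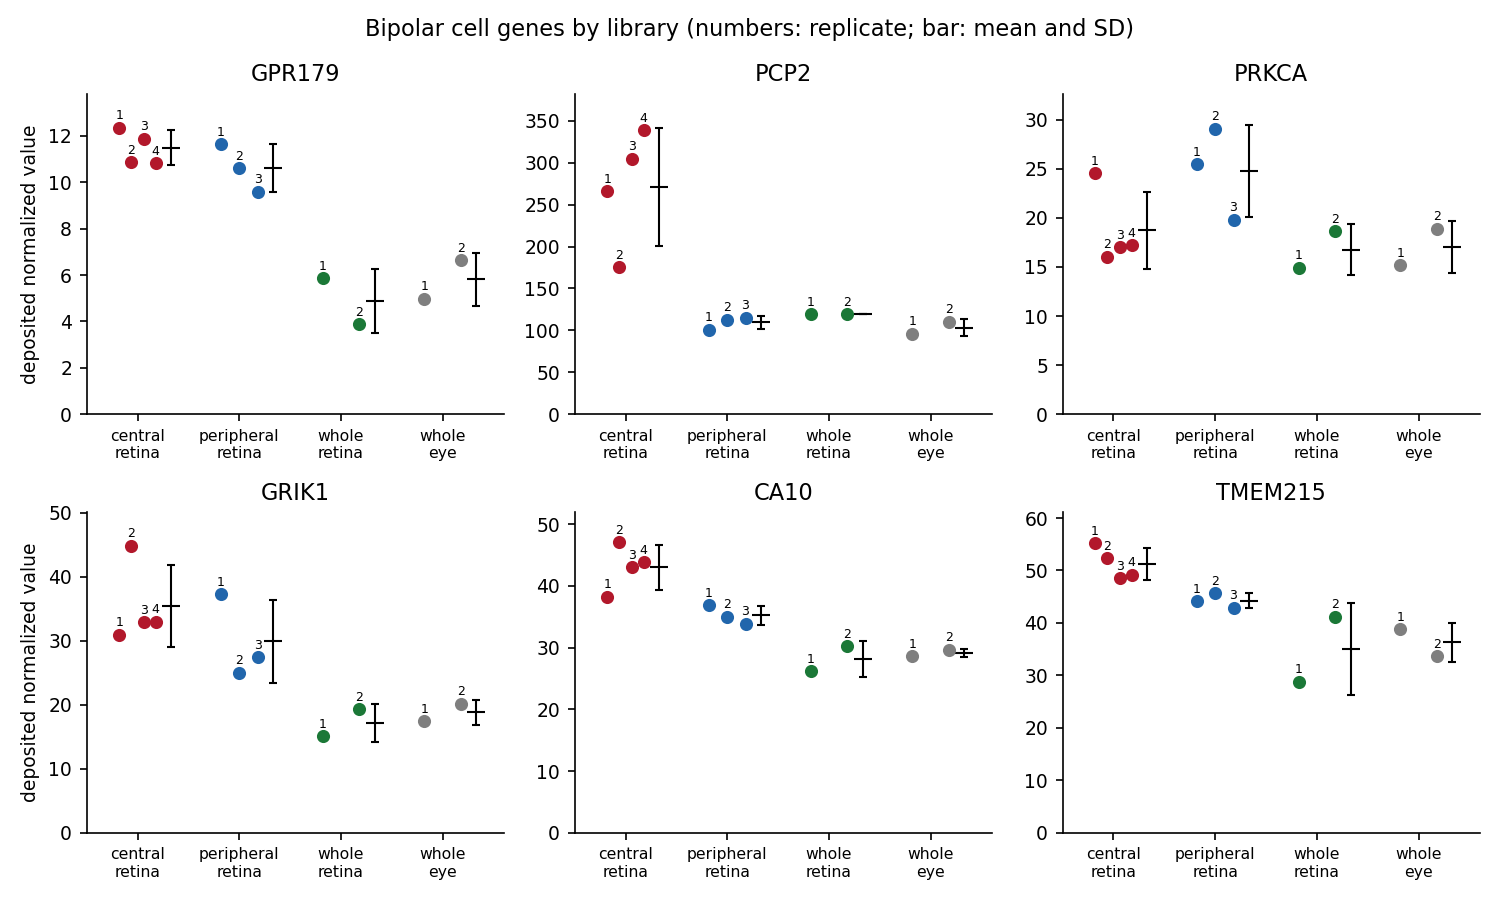
Deposited normalized value of the 6 bipolar cell genes in each of the 11 libraries, with 1 point per library, its replicate number above it, and the mean and SD beside each group (n = 4, 3, 2 and 2). PCP2 lay at 175 to 339 in central retina and at 119.6 or less elsewhere. GPR179, GRIK1, CA10 and TMEM215 lay higher in all 7 regional libraries than in the 4 whole retina and whole eye libraries. The share of all tested genes split in these ways was not counted.

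Of the 6 members, 1 was thus higher in central than in peripheral retina and 0 lower by limma, with 2 higher (PCP2 and CA10) and 1 lower (PRKCA) at an unadjusted p under 0.05. In this comparison 21.3% of all tested genes were called in either direction, 12.5% as higher and 8.76% as lower, and 1 of 6 members is near that background. The median log2 difference of the members was 0.23, beside −0.01 over all tested genes.

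The members fell into no common order within a region. Central retina replicate 2 had the lowest PCP2 value of its group, 175, and the highest GRIK1 and CA10 values, 44.9 and 47.0. Replicate 1 had the highest GPR179, PRKCA and TMEM215 values of the 4 and the lowest GRIK1 and CA10 values. Over the 11 libraries, which include the differences between groups, GRIK1 and CA10 had the closest pattern (Pearson's r of log2 values 0.942) and PCP2 and PRKCA the least alike (r = −0.12). These correlations are descriptions without a test, since all libraries of a group share their tissue.

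Ratios of 2 members within a library are unchanged by a single scaling factor per library, though not by a scaling such as quantile normalization that moves genes differently. The ratio of PCP2 to GPR179, both genes of ON bipolar cells, was 21.5, 16.1, 25.7 and 31.3 in central retina, against 8.67, 10.6 and 12 in peripheral retina. It was 20.3 and 30.7 in the whole retinas and 19.2 and 16.7 in the whole eyes. All 3 peripheral ratios lay below all 8 others. How often pairs of other genes split in this way was not counted. The ratio of PRKCA to GRIK1 was 0.793, 0.357, 0.517 and 0.521 in central retina, against 0.683, 1.16 and 0.721 in peripheral retina. It was 0.987 and 0.965 in the whole retinas and 0.87 and 0.937 in the whole eyes, so central replicate 1 again lay inside the peripheral range. The ratios of GRIK1 to GPR179 and of TMEM215 to CA10 were also taken, and for both the regions overlapped. Their means were 3.11 and 1.2 in central retina, against 2.81 and 1.26 in peripheral retina.

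**Figure D3:**
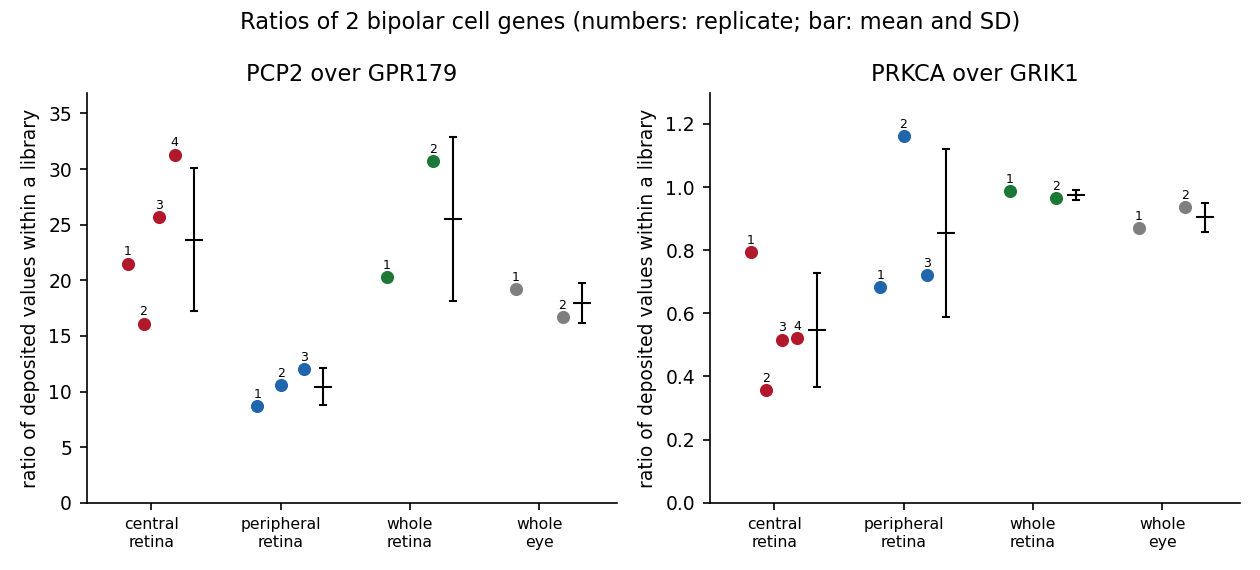
Ratio of the deposited values of 2 members within a library, PCP2 over GPR179 on the left and PRKCA over GRIK1 on the right, with 1 point per library and the mean and SD beside each group (n = 4, 3, 2 and 2). The PCP2 ratio was 12 or less in peripheral retina and 16.1 or more in every other library. How often pairs of other genes split in this way was not counted.

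None of the members passed the test between whole retina and whole eye. All 6 had an adjusted p of at least 0.715 by limma, 0 had an unadjusted p under 0.05, and 2.27% of all tested genes were called. The widest of the 95% confidence intervals of the log2 difference was that of PCP2, from −0.34 to 0.76, and the narrowest that of CA10, from −0.34 to 0.24. The libraries of the groups did not overlap for 1 member, PCP2, higher in whole retina, while 14% of all tested genes were so separated as higher and 17.6% as lower. The same comparison called 6 of 13 tested markers of lens, surface, muscle and fibrous tissue, all lower in whole retina.

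Against whole retina, 5 of the 6 members were higher in central retina, where 48.7% of all tested genes were called, 18.9% as higher. These 5 also had groups without overlap, a separation found as higher for 24.1% of tested genes and as lower for 34.7%. GPR179 was higher by 1.11 on the log2 scale (standard error 0.16, limma adjusted p = 0.000185), at 11.5 ± 0.756 in central retina against 4.88 ± 1.39 in whole retina. The sum of GPR179, GPR1 and GPR17, made on the names alone, did not pass (limma adjusted p = 0.149). PCP2 was higher by 1.14 (standard error 0.22, limma adjusted p = 0.00127) and GRIK1 by 1.00 (standard error 0.19, limma adjusted p = 0.00128). CA10 was higher by 0.59 and TMEM215 by 0.56 (limma adjusted p = 0.00137 and 0.00663), and the call on TMEM215 was lost without whole retina replicate 1, at an adjusted p of 0.0899. PRKCA did not pass, at 0.14 with a 95% confidence interval from −0.30 to 0.57 (limma adjusted p = 0.595).

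Against the same whole retina libraries, 2 members were higher in peripheral retina, where 34.2% of all tested genes were called, 9.83% as higher. GPR179 was higher by 1.00 on the log2 scale (standard error 0.17, limma adjusted p = 0.000915) and GRIK1 by 0.75 (standard error 0.20, limma adjusted p = 0.0133). The sum of GPR179, GPR1 and GPR17, made on the names alone, did not pass (limma adjusted p = 0.0676). The GRIK1 call was lost without whole retina replicate 1, at an adjusted p of 0.107. PRKCA, TMEM215 and CA10 lay above whole retina in all 3 peripheral libraries, with log2 differences of 0.53, 0.35 and 0.32, but did not pass (limma adjusted p = 0.073, 0.0893 and 0.0648). Leaving out 1 library gave a call on PRKCA (0.0426 without central replicate 1 and 0.0358 without peripheral replicate 3) and on TMEM215 (0.00902 without whole retina replicate 2). Such separation held for 21.7% of tested genes as higher and 35.6% as lower. PCP2 libraries were all lower than whole retina, without a call, at −0.12 with a 95% confidence interval from −0.63 to 0.38 (limma adjusted p = 0.719) and at 0.13 after quantile normalization.

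The comparisons with whole retina depend on scaling. After quantile normalization the median log2 difference of all genes was 0.12 in place of −0.10 for central retina and 0.16 in place of −0.08 for peripheral retina, and the share of calls that were higher was 59.5% in place of 38.9% for central and 60.9% in place of 28.8% for peripheral retina. Relative to that median, the central differences after quantile normalization were 1.24 for GPR179, 1.17 for PCP2, 1.00 for GRIK1, 0.56 for CA10 and 0.55 for TMEM215, beside 1.21, 1.24, 1.10, 0.70 and 0.66 without it. In peripheral retina 5 of 6 members, all but PCP2, passed after quantile normalization or after scaling to 1 median. The same regions had lower sums of the pigment epithelium and outer tissue markers given above, and whether that share of other RNA sets the size of these differences was not tested.

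**Figure D4:**
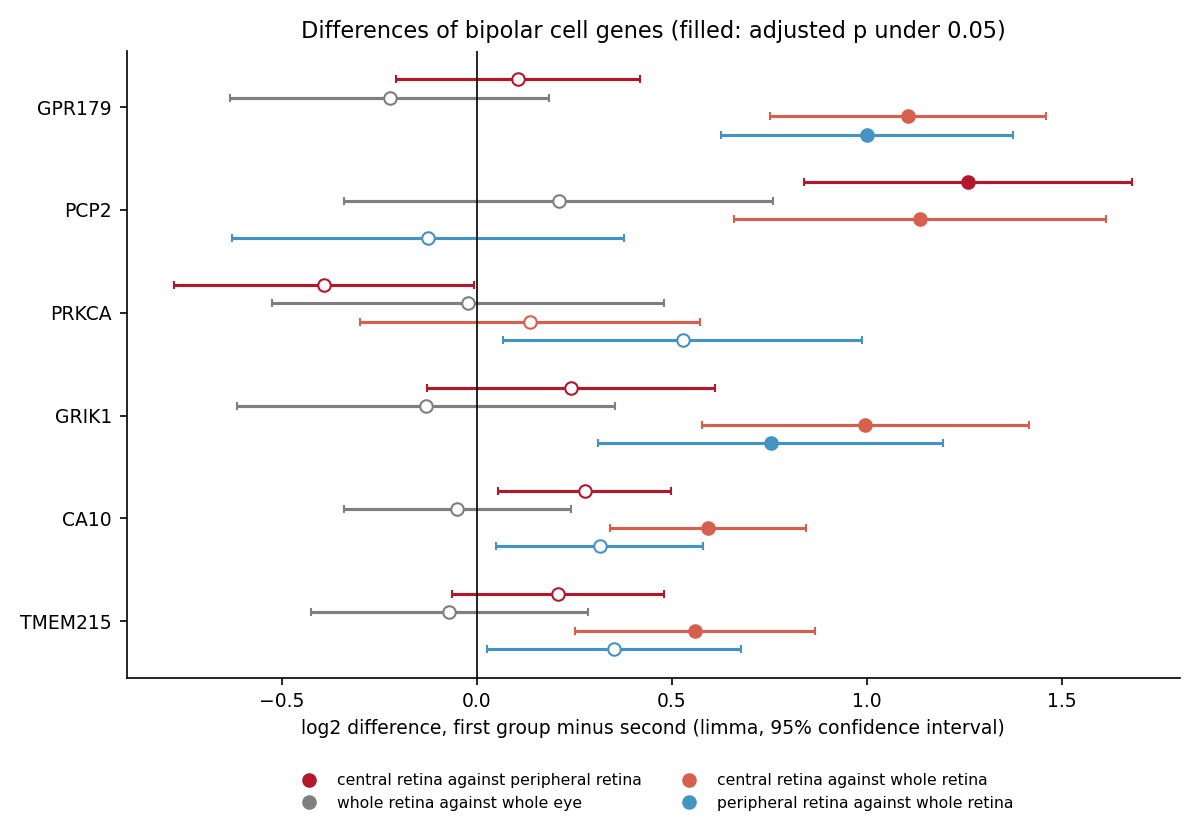
Log2 difference of the 6 bipolar cell genes in the 4 comparisons, first group minus second, with limma's 95% confidence interval, filled where the adjusted p was under 0.05. Central against peripheral retina is filled for PCP2 alone (1.26), and GPR179 and GRIK1 are filled against whole retina in both regions.

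The other genes of bipolar cells were taken from 5 lists, which hold 50 genes besides the members, 37 of them in the tables and 36 tested. Between central and peripheral retina 8 of the 36 were higher, 2 lower and 26 not called, with a median log2 difference of 0.11 beside −0.01 over all tested genes, of which 12.5% were called as higher and 8.76% as lower. Without replicate 2 of peripheral retina the calls dropped to 3 in all, and without its replicate 3 to 5. The alternatives for this list were chosen after seeing the data. Against whole retina, 24 were higher and 1 lower in central retina, and 16 higher and 0 lower in peripheral retina by limma (over all tested genes 18.9% higher and 29.7% lower, and 9.83% higher and 24.3% lower), where 21 were higher and 0 lower at an unadjusted p under 0.05. The medians were 0.61 and 0.44, beside −0.10 and −0.08 over all tested genes. Lists of other retinal neurons also held genes called as higher than in whole retina. In central retina these were 8 of 8 ganglion, 5 of 10 amacrine, 5 of 9 cone, 1 of 3 horizontal and 1 of 10 rod genes. The amacrine, cone and rod lists each had 1 lower there. In peripheral retina the counts were 0 of 8, 6 of 10, 0 of 9, 2 of 3 and 5 of 10, with 0 lower. Between whole retina and whole eye 0 of the 36 passed by limma, with 3 higher and 3 lower at an unadjusted p under 0.05.

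In the mGluR6 cascade, 2 of 11 tested genes were higher and 0 lower in central than in peripheral retina, near the background of 12.5% and 8.76% of all tested genes. Beside PCP2 this was GNAO1, the alpha subunit of Go, at 149 ± 1.98 in the central libraries (SD, n = 4) against 105 ± 10.7 in the peripheral ones (SD, n = 3), with a limma adjusted p of 0.00412. The 8 tested ganglion cell markers were all higher in central retina too, and the part of other neurons in the GNAO1 value was not tested. RGS11, the partner of GNAO1 that speeds the shut-off of Go, averaged 27.7 ± 2.14 in central against 18.9 ± 2.34 in peripheral retina. It did not pass, at a limma adjusted p of 0.0559. Against whole retina, 9 of the 11 were higher in central and 4 in peripheral retina, where 18.9% and 9.83% of all tested genes were. Among the named genes of the list, the largest differences were those of RGS11, at 1.81 and 1.28 on the log2 scale, and of RGS9BP, the membrane anchor of RGS9 and RGS11, at 1.88 and 1.57 (limma adjusted p = 2.52e-05 and 0.000796, 5.81e-05 and 0.000545). RGS9BP is used by photoreceptors as well, and it shares its name start with RGS9, at 8.90 to 35.8.

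RGS7, the other RGS protein held by GPR179, averaged 10.1 ± 1.29 in central retina against 7.03 ± 1.05 in whole retina (limma adjusted p = 0.0225), a call lost without whole retina replicate 1 at 0.174. It shares its name start with RGS7BP, at 8.99 to 26.0. TRPM1, the channel at the end of the cascade, took the other direction in its means. It averaged 15.6 ± 2.52 in central, 18.2 ± 2.34 in peripheral, 20.4 ± 2.66 in whole retina and 22.7 ± 2.56 in whole eye, and did not pass in the regional comparison (limma adjusted p = 0.3) or against whole retina (0.0717 for central, 0.5 for peripheral retina). TRPM1 is also expressed in pigment cells, whose markers were high in whole retina and whole eye. Their part in its level was not tested.

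Of the 4 tested genes of the rod bipolar list, which holds PCP2 and PRKCA, 1 was called between the regions and 1 between central and whole retina, PCP2 in both. These comparisons called 21.3% and 48.7% of all tested genes.

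Among 10 tested genes of OFF bipolar cells, 4 were higher and 1 lower in central than in peripheral retina. Over all tested genes, 12.5% were called as higher and 8.76% as lower. Of the 4, FEZF2 is also on the list of transcription factors below, so its call counts in both lists. TACR3, a tachykinin receptor, averaged 4.31 ± 0.246 in central against 2.55 ± 0.774 in peripheral retina (limma adjusted p = 0.0134). The AMPA receptor subunits split. GRIA2 was higher, at 10.8 ± 2.32 in central against 6.70 ± 0.620 in peripheral retina (limma adjusted p = 0.019). GRIA4 was higher too, at 12.9 ± 2.84 in central against 7.65 ± 1.88 in peripheral retina (limma adjusted p = 0.0196). GRIA1 was lower, at 4.38 ± 0.533 in central against 15.7 ± 2.10 in peripheral retina, a log2 difference of −1.63 (limma adjusted p = 4.51e-05). These subunits are shared with amacrine and ganglion cells, and the 8 tested ganglion cell markers were all higher in central retina, at sums of 2137 to 4087, against 417 to 734 in peripheral retina. Their part in these differences was not tested. Leaving out replicate 2 or 3 of peripheral retina ended the calls on TACR3, GRIA2 and GRIA4, with a highest limma adjusted p of 0.0681, 0.0669 and 0.0947, and leaving out central retina replicate 4 also ended that on GRIA4.

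GRIA1 also set central retina apart from whole retina, which read 13.2 ± 1.30 (limma adjusted p = 1.43e-05), while peripheral retina did not pass against it (limma adjusted p = 0.285). NETO1, an auxiliary subunit of kainate receptors, was higher than in whole retina by 1.10 in central and by 0.84 in peripheral libraries (limma adjusted p = 3.82e-05 and 0.000705), with no call lost on leaving out a library. UNC5D, a netrin receptor, was higher by 0.48 in peripheral than in whole retina (limma adjusted p = 0.0439), a call lost on leaving out any of 7 of the 11 libraries (at most 0.153).

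Of 10 tested transcription factors of bipolar cells, 3 were higher and 1 lower in central than in peripheral retina. Over all tested genes the shares were 12.5% and 8.76%. IRX6, a homeobox factor of cone bipolar types in the mouse, averaged 5.64 ± 1.37 in central against 2.55 ± 0.582 in peripheral retina (limma adjusted p = 0.00367). Its relative IRX5 averaged 6.74 ± 0.890 in central against 4.19 ± 0.505 in peripheral retina, with a limma adjusted p of 0.0139. FEZF2, a zinc finger factor, averaged 11.9 ± 0.8 in central against 8.27 ± 0.250 in peripheral retina, with a limma adjusted p of 0.0155. OTX2, a homeobox factor of photoreceptors and bipolar cells, was lower, at 75.6 ± 10.3 in central against 102.5 ± 4.98 in peripheral retina (limma adjusted p = 0.0341). Leaving out replicate 2 of peripheral retina ended the calls on OTX2 (adjusted p = 0.129 by limma), FEZF2 (0.067) and IRX5. The IRX5 call was also lost without peripheral replicate 1 (0.0611), and that on OTX2 without peripheral replicates 1 and 3 or central replicates 3 and 4, each left out alone.

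PRDM8, a factor of rod bipolar and some cone bipolar cells in the mouse, averaged 55.0 ± 5.50 in central, 46.9 ± 3.6 in peripheral and 20.7 ± 1.20 in whole retina, and LHX3, another homeobox factor, 10.1 ± 0.729, 9.32 ± 1.14 and 3.22 ± 0.0849. For both genes each region was called against whole retina, at a limma adjusted p of at most 4.24e-05, and the difference between regions did not pass (0.155 for PRDM8 and 0.554 for LHX3). BHLHE22, a basic helix-loop-helix factor, was higher than in whole retina by 0.77 in each region (limma adjusted p = 0.00237 in central and 0.00483 in peripheral retina).

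Of the 12 tested synaptic and other bipolar genes, 1 was called between the regions, beside 21.3% of all tested genes. KCNMA1, a potassium channel gated by calcium, averaged 46.0 ± 1.34 in the central and 35.9 ± 2.67 in the peripheral libraries (limma adjusted p = 0.0213), a call lost without central replicate 4 or peripheral replicates 2 or 3, each left out alone (at most 0.0859). CPLX3, a complexin of ribbon synapses, averaged 238 ± 26.6 in central against 187 ± 10.6 in peripheral retina (limma adjusted p = 0.0507), and shares its name start with CP, at 6.17 to 34.6 in the regions. CABP2, a calcium-binding protein gene, had the opposite order of means, 60.5 ± 8.04 in central against 84.4 ± 16.3 in peripheral retina (limma adjusted p = 0.0505). GABRR2, a subunit of the rho type GABA receptors on bipolar terminals, averaged 19.2 ± 2.39 in central against 16.1 ± 1.02 in peripheral retina (limma adjusted p = 0.151).

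Of the 12 tested genes of this last list, CA10 and TMEM215 included, 8 were higher in central and 6 in peripheral than in whole retina. Over all tested genes, 18.9% and 9.83% were. CABP2 was higher by 0.83 in the central and by 1.29 in the peripheral libraries (limma adjusted p = 0.00225 and 0.000256). CTBP2, the gene of the ribbon protein RIBEYE, passed in peripheral retina (0.47, limma adjusted p = 0.005) and not in central retina (0.22, limma adjusted p = 0.0854). SCGN, a calcium-binding protein of some cone bipolar cells, stood at 2.45 or less in every library and passed in no comparison (lowest limma adjusted p = 0.111). Of the genes fixed by name, GRM6, VSX1, ISL1 and CABP5 had no usable entry under these names and could not be analysed.

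**Figure D5:**
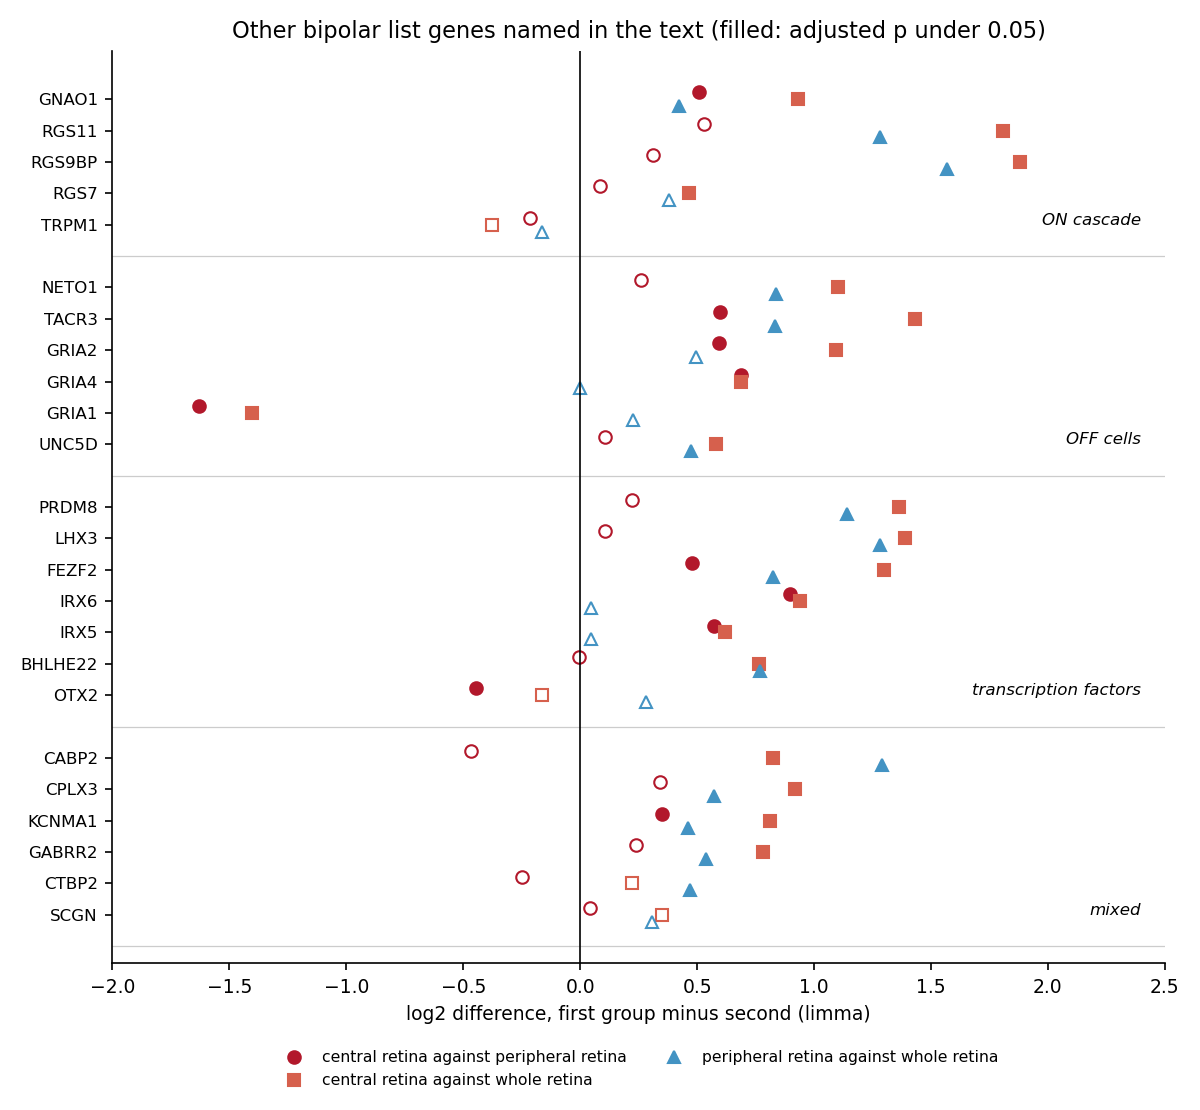
Log2 difference (first group minus second, limma) of 24 other bipolar genes in 3 comparisons, filled where the adjusted p was under 0.05, grouped by list from top to bottom. Most of the plotted genes were chosen among called genes by smallest p, so the share of filled points follows from that choice. CA8 and NIF3L1 are not plotted. Of all 36 tested list genes, 24 were higher and 1 lower in central than in whole retina. Over all tested genes the shares were 18.9% and 29.7%. GRIA1 lies left of 0 at −1.63 against peripheral and −1.40 against whole retina.

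Genes most like each member were named by Pearson's r of log2 values over the 11 libraries, among 3864 genes with a mean of at least 10. For PCP2 these were SOBP (r = 0.973), SNAPC2 and MED29 (both 0.951). SOBP read 17.0 to 20.4 in the central and 12.5 to 13.5 in the peripheral libraries, the same split as PCP2 at a smaller size. Because SOBP was picked for its likeness to PCP2 over these same libraries, that split is no separate evidence. For GPR179 they were GUCA1B (0.977), which encodes a guanylate cyclase activator of photoreceptors, FRMD5 (0.974) and DRD1 (0.968). GRIK1 was most like SH3GL2 (0.958), DIRAS2 (0.956) and SNAP91 (0.949), and CA10 most like SH3GL2 (0.979), RTN1 (0.978) and C14H11orf87 (0.964). SH3GL2, which encodes an endophilin of synaptic vesicle recycling, was also among those of TMEM215 (0.902), with FAM174A (0.916) and KHDC1 (0.9). PRKCA had the weakest likeness, with KAL1 (0.861) and GUCY2F (0.85), a photoreceptor guanylate cyclase.

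The order of group means was central, peripheral, whole eye and whole retina for GRIK1, GPR179, CA10 and TMEM215. In all 4 the whole eyes and whole retinas overlapped, and the peripheral libraries lay above the whole eyes. The separation of peripheral retina from whole eye was not counted over all tested genes. Central and peripheral libraries overlapped for GRIK1 and GPR179 and did not for CA10 and TMEM215. For PCP2 whole retina stood between central and peripheral retina, at 119 ± 0.368 (SD, n = 2), and peripheral retina and whole eye overlapped. PRKCA was highest in peripheral retina, and each neighbour in its order overlapped with the next.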

How the data were processed

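Per the file headers, a table holds 1 signal value per gene and library. The authors deposited this signal in normalized form, without stating the scaling. The submitters' processing notes name the aligner GSNAP and the counter HTSeq. The build is not given in the sources used here, and no coordinates or sequences are printed. Of 13083 entries per table, 27 had no value and 61 were exact duplicates, which left 12995.

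Samples were grouped by their labelled tissue. The values are not counts, so limma 3.58.1 (R 4.3.3) was run on log2(value + 1). The model took all 11 libraries and 4 groups, and let variance follow level. Only genes reaching a mean of 1 in some group entered. Differences on this scale understate those of low genes. The two-sided p-values of a comparison were corrected over 11933 genes (Benjamini-Hochberg, threshold 0.05). Both regions are set against the same whole retina libraries. Sums and ratios used pandas 2.3.3 and numpy 2.4.6, and plots matplotlib 3.10.9. The fit was tested on simulated data.

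The members, gene lists and tests were chosen with earlier results of these data known. Named genes are the 6 members, up to 6 called genes per bipolar list and comparison by smallest p, 8 bipolar genes fixed by name, up to 2 genes per list of another cell type, and the 3 genes most correlated with each member. Names that begin with, or begin, another name were left out of the last group. Some genes that the rule names are not reported here. Alternatives were pseudocounts of 0.1 and 5, no filter or a minimum mean of 5, quantile and median scaling, fits of 2 groups, no variance trend, sums over names sharing a start, the replicate block, and each library left out. The sums were made on the names alone. They mix different genes, so a sum without a call does not show that the member's own difference is weak.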

Additional observations from a re-analysis of the deposited data

Results flagged for a closer look

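In central retina, the group of 4 libraries, a library was marked where its gap to the nearest other, over the group's range, exceeded Dixon's 95% critical value. Of 47 genes checked, 6 had such a library, and chance marks about 1 in 20 groups. GRIK1 stood at 44.9 in replicate 2, above 31.0 to 33.0 in the others. PRKCA stood at 24.58 in replicate 1, above 16.0 to 17.2 in the others. GRIA1 was highest at 5.17 in replicate 2 and SCGN at 2.45 in replicate 4. RGS7 was lowest at 8.19 and KHDC1 at 12.11, both in replicate 3.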

How the results depend on the processing

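PCP2 kept its call between central and peripheral retina in all 21 alternatives, at a log2 difference of 1.14 to 1.45. Leaving out each library in turn gave 1327 to 2887 genes called between the regions (1327 without peripheral retina replicate 2, 1647 without central retina replicate 4) and 1 to 2 members. Between whole retina and whole eye it gave 249 to 745 genes (745 without whole retina replicate 2), against 143 with a minimum mean of 5 and 170 in a fit of the 2 groups alone. Member differences of that comparison, none called, spanned 0 when libraries were left out: GRIK1 −0.296 to 0.038, GPR179 −0.467 to 0.021, CA10 −0.152 to 0.053, PRKCA −0.173 to 0.129 and TMEM215 −0.320 to 0.181. PRKCA between central and whole retina ran from −0.013 to 0.289. Between peripheral and whole retina, 5 members were called after quantile normalization and 5 after scaling to 1 median, 1 with sums over shared name starts, and 1 to 3 with a library left out (1 without whole retina replicate 1). PCP2, uncalled there, turned to 0.13 after quantile normalization and 0.076 after median scaling. The sum of GPR179, GPR1 and GPR17 had a regional difference of −0.729 (limma adjusted p = 0.513). This sum, made on the names alone, was not called against whole retina (limma adjusted p = 0.149 for central, 0.0676 for peripheral). GPR1 made up most of the summed value in central retina replicate 2 (86.4) and in peripheral retina replicates 1 (54.2) and 3 (58.9). The other regional libraries had GPR1 at 0.89 or less, while GPR179 alone lay between 9.59 and 12.4 in every regional library. Why GPR1 stood high in some regional libraries was not tested, nor was the cause of the other changes. Replicate numbers gave no common pairing of the samples: deviations of same-numbered central and peripheral libraries correlated at −0.138, −0.061 and 0.357. With different numbers, central 1 and peripheral 2 stood at 0.363, central 2 and peripheral 1 at 0.347, and central 4 and peripheral 3 at 0.225. All remaining pairs of these regions were negative, down to −0.243. Whether samples share an animal under other numbers was not tested, and the main model treats them as unpaired. With the replicate block, 2070 genes were called between the regions, 213 between whole retina and whole eye, and 5427 in central and 4224 in peripheral against whole retina, with 1, 0, 5 and 2 members. The number of libraries limits precision, and sequencing depth is unknown.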
